A study of Homo sapiens with 15 samples.

Results

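The long arm of chromosome 1 was examined for the binding of MYC and of its partner WDR5 as mapped by chromatin immunoprecipitation and sequencing (ChIP-seq) in HEK293, a line derived from human embryonic kidney. Its members are the deposited peaks on chromosome 1 that start at or above position 142500000 (build hg19), 1065 of the 20388 peaks in all 3 lists. They were compared with the 1279 peaks of the short arm, those that start below 125000000, and with the 18044 peaks of the other chromosomes. The arms were selected on measured values, the numbers of MYC peaks relative to WDR5 peaks in these same lists, so counts and ratios by arm are given as a description and carry no test.

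The study used 3 libraries in each of 5 groups, and the peaks of 3 groups were analysed here. HEK293 cells transduced with a retrovirus expressed FLAG-tagged wild-type MYC (WT-MYC) or FLAG-tagged MYC deficient in WDR5 binding (WBM-MYC), and both were precipitated with the anti-FLAG antibody M2. WDR5 was precipitated with its own antibody from HEK293 cells that carried no retrovirus. FLAG precipitates from empty-vector cells and rabbit IgG precipitates from untransduced cells were the controls, and peaks of these were not analysed here. The transduced cells also keep their own untagged MYC, which the FLAG antibody does not see. Each list stands for its whole group, so no spread between libraries can be given. Intervals below are 95% intervals over peaks and cover counting error only, and read depth is unknown.

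MYC is a transcription factor of the basic helix-loop-helix leucine zipper family. With its partner MAX it binds E-box DNA, mostly at promoters that are already open and active, and it is known for raising the output of growth, ribosome and metabolism genes. WDR5 is a ring-shaped WD40-repeat protein that holds together histone H3 lysine methyltransferase complexes at such promoters and can contact MYC directly. Both proteins are known mainly from the starts of active genes. The number of WDR5 peaks in a region serves here as the yardstick for MYC peaks in the same region.

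The long arm held more MYC peaks and fewer WDR5 peaks than the short arm. WT-MYC had 193 peaks on the long arm and 167 on the short arm. WBM-MYC had 62 and 49. For WDR5 the order was the other way, with 810 peaks on the long arm and 1063 on the short arm. Between the outermost peaks, 104.3 Mb of the long arm carried 7.77 WDR5 peaks per Mb and 120.5 Mb of the short arm carried 8.82. WT-MYC peaks came to 1.93 per Mb on the long arm and 1.42 on the short arm, and WBM-MYC peaks to 0.620 and 0.435. The long arm thus held 7.64% of all WT-MYC peaks and 8.99% of all WBM-MYC peaks, against 4.72% of all WDR5 peaks.

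Per 100 WDR5 peaks, the long arm had 23.8 WT-MYC peaks (20.3 to 27.9), the short arm 15.7 (13.3 to 18.5) and the other chromosomes 14.2 (13.5 to 14.8). The long-arm ratio was 1.52-fold the short-arm ratio (1.21 to 1.90) and 1.68-fold that of the other chromosomes (1.43 to 1.98). The short-arm ratio was 1.11-fold that of the other chromosomes, with an interval that includes 1 (0.936 to 1.31). WBM-MYC followed the same order, with 7.65 peaks per 100 WDR5 peaks on the long arm (5.81 to 9.92), 4.61 on the short arm (3.39 to 6.14) and 3.79 on the other chromosomes (3.48 to 4.11). Its long-arm ratio was 1.66-fold the short-arm ratio (1.13 to 2.44) and 2.02-fold that of the other chromosomes (1.54 to 2.65). The 2 forms of MYC kept a similar proportion to each other: there were 32.1 WBM-MYC peaks per 100 WT-MYC peaks on the long arm (23.7 to 43.0), 29.3 on the short arm (20.9 to 40.6) and 26.7 on the other chromosomes (24.3 to 29.3). The WT-MYC and WBM-MYC ratios share the same WDR5 counts and are not separate measurements of the yardstick.

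No peak lies near the limits that separate the arms. The last WDR5 peak of the short arm spans 121260897 to 121261648 and the first of the long arm 144931792 to 144932674, a gap of 23.7 Mb around the centromere. The last WT-MYC peak of the short arm spans 118472192 to 118472687, and the first of the long arm, 144930991 to 144931486, ends just before that first WDR5 peak. For WBM-MYC the corresponding peaks span 113498776 to 113499231 and 144994494 to 144994949. Any limit between 121261648 and 144930991 gives the same members.

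Among all chromosomes the long arm ranked high without standing alone. Each other chromosome was split at its largest gap between WDR5 peaks, as a stand-in for its arms, which gave 43 parts with at least 100 WDR5 peaks. By WT-MYC peaks per 100 WDR5 peaks the long arm of chromosome 1 was number 4 of these parts and the short arm number 17. The parts above it were the later parts of chromosomes 6, 9 and 15, with 26.6, 25.8 and 24.5 (27 WT-MYC peaks in the last). By WBM-MYC peaks the long arm was number 5 and the short arm number 12. The 1.52-fold step between the parts of chromosome 1 was number 8 in size among the 20 chromosomes with both parts that large, and the largest was 2.71-fold, on chromosome 6. A step of this size between parts split in this way was therefore not particular to chromosome 1. The largest WDR5 gap was 23.7 Mb on chromosome 1 and 7.10 Mb on chromosome 6. Such a gap need not lie at the centromere, so the parts of other chromosomes need not be arms.

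**Figure D1:**
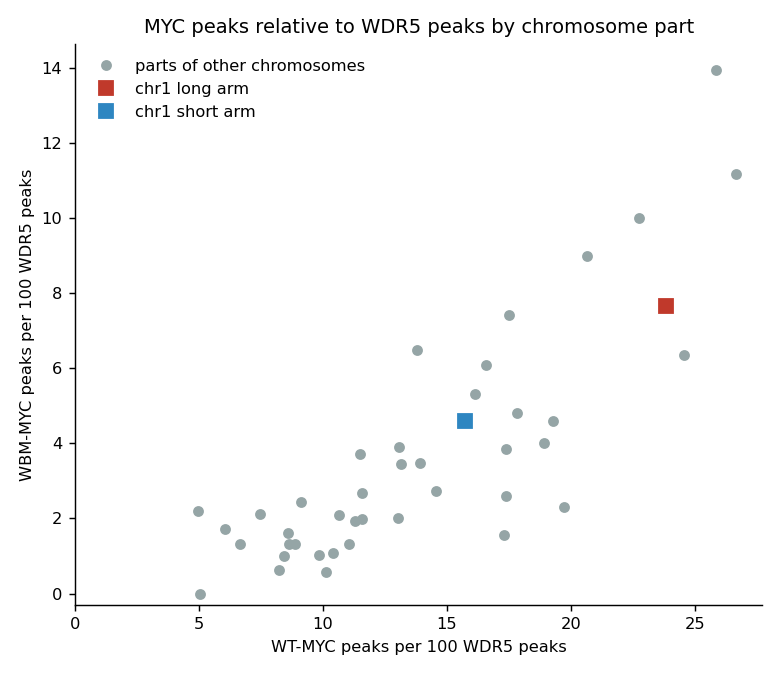
Each point is 1 part of a chromosome with at least 100 WDR5 peaks; the x axis gives WT-MYC peaks and the y axis WBM-MYC peaks per 100 WDR5 peaks of the same part. The long arm of chromosome 1 (red square, 23.8 and 7.65) lies in the upper right group with parts of a few other chromosomes, and the short arm (blue square, 15.7 and 4.61) lies in the middle of the range.

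The excess of WT-MYC peaks was uneven along the long arm. In bins of 5 Mb with at least 20 WDR5 peaks, 4 of 17 long-arm bins (23.5%) reached 2 times the WT-MYC to WDR5 ratio of the whole genome, which is 14.7 WT-MYC peaks per 100 WDR5 peaks. Over all 346 such bins 4.91% did, and on the short arm 0 of 20 did. At the other end, 0 of 17 long-arm bins and 2 of 20 short-arm bins were at or below 1/2 of the genome ratio, against 22.5% of all bins. Across the long arm 14 of 17 bins lay above the genome ratio, with a median of 20 WT-MYC peaks per 100 WDR5 peaks. For the short arm the count was 12 of 20, with a median of 16.0, and on other chromosomes 122 of 309 did, with a median of 12. Neighbouring bins are not independent of each other.

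For WBM-MYC, on smaller counts, the bins gave a mixed picture. Of the 17 long-arm bins, 7 reached 2 times the genome ratio of 4.02 WBM-MYC peaks per 100 WDR5 peaks, and 2 of 20 short-arm bins did, against 12.7% of all bins. At or below 1/2 of that ratio were 2 long-arm and 4 short-arm bins, against 40.8% of all bins. Above the genome ratio itself, however, lay 11 of 17 long-arm bins and 14 of 20 short-arm bins, against 35.0% of all bins. Here the order of the 2 arms was the opposite. In many bins a single WBM-MYC peak decides on which side of the limit the bin falls.

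The highest ratios formed 1 stretch near the far end of the arm. The bin from 230 to 235 Mb held 23 WT-MYC, 8 WBM-MYC and 44 WDR5 peaks, or 52.3 WT-MYC peaks per 100 WDR5 peaks (30.1 to 88.5), the top value of all 346 bins. Next to it, the bin from 225 to 230 Mb held 26 WT-MYC, 9 WBM-MYC and 63 WDR5 peaks, a WT-MYC ratio of 41.3 (25.1 to 66.1) that was number 7 of the genome. On its other side, the bin from 235 to 240 Mb held 14 WT-MYC, 4 WBM-MYC and 34 WDR5 peaks, a ratio of 41.2 (20.4 to 78.8) and number 8 of the genome. These 3 bins follow each other without a break. The genome's 17 bins past the 2-fold limit formed 11 runs, and only 2 of the runs were 3 bins long, the longest length found.

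Outside this stretch the leading bins of the long arm were from 210 to 215 Mb, with 14 WT-MYC and 47 WDR5 peaks and a ratio of 29.8 (15.1 to 55.0), and from 180 to 185 Mb, with 9 WT-MYC and 31 WDR5 peaks and a ratio of 29.0 (12.2 to 62.5). They differed in the mutant: the bin from 210 to 215 Mb held 1 WBM-MYC peak and that from 180 to 185 Mb held 6. The lowest long-arm bin directly follows the dense stretch. From 240 to 245 Mb there were 2 WT-MYC and 26 WDR5 peaks, a ratio of 7.69 (0.885 to 30.7), with 3 WBM-MYC peaks. Other low bins were from 145 to 150 Mb with 11.6 WT-MYC peaks per 100 WDR5 peaks, from 200 to 205 Mb with 12.7, from 175 to 180 Mb with 15 and from 205 to 210 Mb with 16.7. On the short arm the ratio was highest from 35 to 40 Mb (26.9), from 90 to 95 Mb (26.2) and from 30 to 35 Mb (20.6), and lowest from 0 to 5 Mb (5), from 65 to 70 Mb (6.06) and from 75 to 80 Mb (9.09).

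A high number of WDR5 peaks in a bin did not always come with a high ratio. The relation over all bins was not tested. The long-arm bins with most WDR5 peaks were from 150 to 155 Mb, with 105, and from 155 to 160 Mb, with 90, and their WT-MYC ratios were 21.9 and 17.8, both below those of the dense stretch. From 0 to 5 Mb on the short arm, 80 WDR5 peaks came with 4 WT-MYC peaks. From 225 to 230 Mb on the long arm, 63 WDR5 peaks came with 26.

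**Figure D2:**
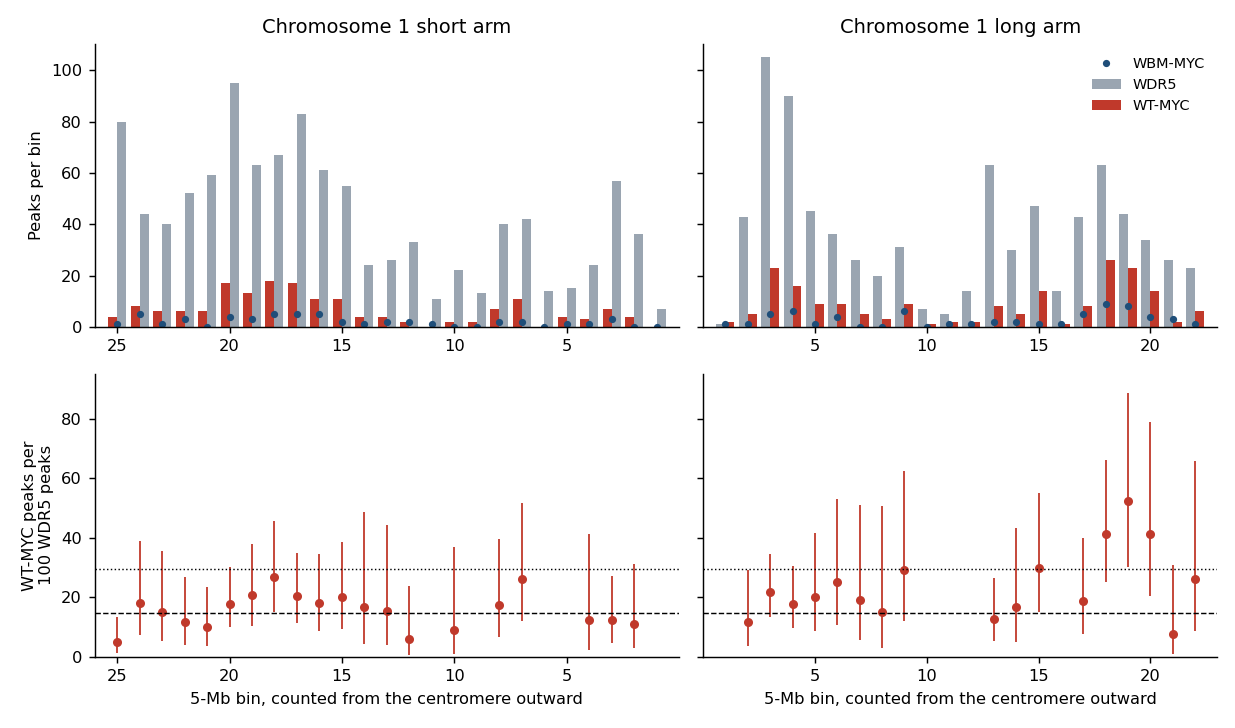
The upper panels give peaks per 5-Mb bin (grey bars WDR5, red bars WT-MYC, blue points WBM-MYC) along the short arm (left) and long arm (right), with bins numbered from the centromere outward. The lower panels give WT-MYC peaks per 100 WDR5 peaks in bins with at least 20 WDR5 peaks, with 95% intervals, the genome ratio (dashed, 14.7) and 2 times that ratio (dotted). Bins 18 to 20 of the long arm are the dense stretch from 225 to 240 Mb.

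The stretch from 225 to 240 Mb, which was singled out after its values were seen, held 63 WT-MYC, 21 WBM-MYC and 141 WDR5 peaks. That was 44.7 WT-MYC (32.7 to 60.6) and 14.9 WBM-MYC peaks (8.94 to 23.7) per 100 WDR5 peaks. The rest of the long arm had 130 WT-MYC, 41 WBM-MYC and 669 WDR5 peaks, or 19.4 WT-MYC (16.0 to 23.5) and 6.13 WBM-MYC peaks (4.36 to 8.40) per 100 WDR5 peaks. Without the stretch, the WT-MYC ratio of the long arm was 1.24-fold that of the short arm with an interval that includes 1 (0.964 to 1.59), and 1.37-fold that of the other chromosomes (1.13 to 1.66). For WBM-MYC these folds were 1.33 (0.868 to 2.04) and 1.62 (1.17 to 2.24). At the short arm's ratio the long arm would hold 127.3 WT-MYC peaks, 65.7 fewer than found, and 62.1% of that difference came from the stretch. The stretch was picked for its high WT-MYC ratios, while the short arm kept its own highest bins. The direction in which the WT-MYC fold moved was thus set by that choice, and these values are a description only.

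Within the stretch, peaks of wild-type MYC were spread over most of its length. Of its 15 intervals of 1 Mb, the one from 234 to 235 Mb held the most WT-MYC peaks, 11 beside 17 WDR5 peaks. It was followed by the interval from 226 to 227 Mb, with 10 WT-MYC and 24 WDR5 peaks, and that from 235 to 236 Mb, with 8 and 14. From 239 to 240 Mb there was no WT-MYC peak and there were 2 WDR5 peaks. Every other interval held at least 1 WT-MYC peak.

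The leading peaks of the stretch in file order were at 238027763 to 238027888, 234735488 to 234735983 and 235291806 to 235292301, all 3 shared with both other lists, and at 236767608 to 236768103 and 233771541 to 233772036, which overlapped WDR5 and not WBM-MYC. Their lines in the list of 2527 were 58, 90, 122, 146 and 155. The lists carry no score and their order is not explained in the sources used here, so a line number is no measured strength. WT-MYC peaks of the stretch had a median line of 984, those of the rest of the long arm 1263 and those of the short arm 1131. WDR5 peaks of the stretch also came earlier, at a median 35.9% of the way down their list against 47.8% for the rest of the long arm, and were wider, with a median of 532 against 431 bp.

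WT-MYC and WBM-MYC sat on WDR5 peaks about as often on one arm as on the other. At least 1 bp was shared with a WDR5 peak by 166 of 193 long-arm WT-MYC peaks (86.0%, 80.3 to 90.6%) and 143 of 167 short-arm ones (85.6%, 79.4 to 90.6%). The difference was 0.382 percentage points (-6.81 to 7.80). Among WBM-MYC peaks 56 of 62 overlapped WDR5 on the long arm (90.3%, 80.1 to 96.4%) and 42 of 49 on the short arm (85.7%, 72.8 to 94.1%), a difference of 4.61 points (-7.60 to 18.0). These intervals leave room for differences of several points in either direction.

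WBM-MYC peaks of the long arm overlapped WDR5 more often than those of other chromosomes. There the share was 73.1% (69.2 to 76.6%), 17.3 points lower (6.81 to 23.7). Chromosome 9, with 56 WBM-MYC peaks of which 18 overlapped WDR5, makes up part of this, and without it the other chromosomes had 77.4% (73.6 to 81.0%). For WT-MYC the other chromosomes had 82.5%, 3.55 points below the long arm with an interval that includes 0 (-2.26 to 8.06).

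From the side of WDR5, MYC was found at more of the long-arm peaks. A WT-MYC peak overlapped 189 of 810 long-arm WDR5 peaks (23.3%, 20.5 to 26.4%), 162 of 1063 on the short arm (15.2%, 13.1 to 17.5%) and 12.9% on other chromosomes (12.4 to 13.5%). The long arm was 8.09 percentage points above the short arm (4.49 to 11.8). A WBM-MYC peak overlapped 64 long-arm WDR5 peaks (7.90%, 6.14 to 9.98%) and 48 short-arm ones (4.52%, 3.35 to 5.94%), a difference of 3.39 points (1.20 to 5.72). Both shares nearly repeat the ratios on which the arms were selected, so these differences are a description and no separate support. In the dense stretch from 225 to 240 Mb the shares were 40.4% with WT-MYC (57 of 141 peaks, 32.2 to 49.0%) and 14.2% with WBM-MYC (20 peaks, 8.88 to 21.1%). In the rest of the long arm they were 19.7% (16.8 to 23.0%) and 6.58% (4.82 to 8.73%).

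**Figure D3:**
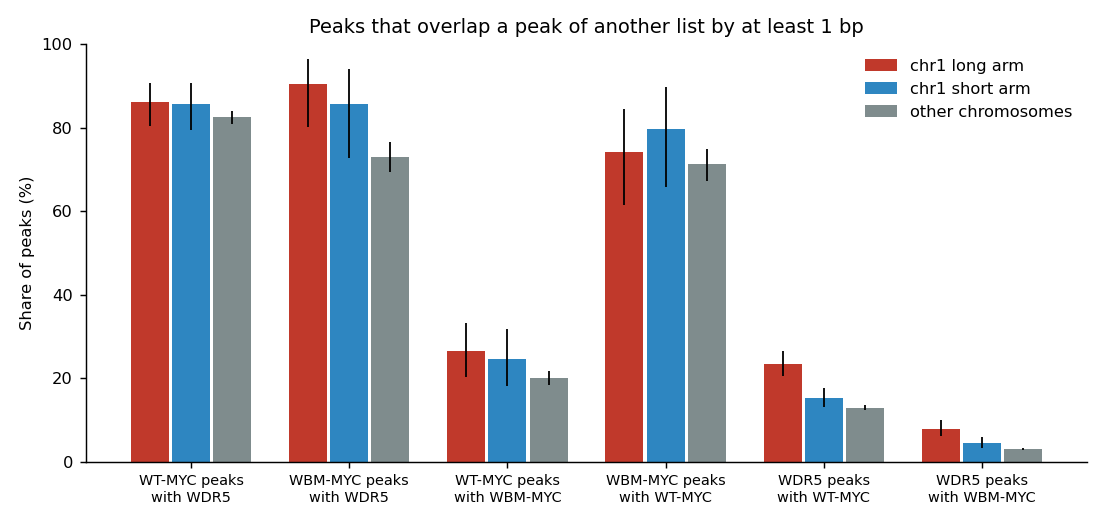
Bars give the share of peaks of 1 list that overlap a peak of another list by at least 1 bp, for the long arm (red), the short arm (blue) and the other chromosomes (grey), with exact 95% intervals over peaks. The arms differ little in the first 4 pairs, and the long arm is highest in the last 2, with 23.3% and 7.90% of WDR5 peaks.

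Early WDR5 peaks carried MYC more often everywhere, and the long arm held slightly more of them, so the shares were also taken within each of 4 equal parts of the WDR5 list in file order. Of the long-arm WDR5 peaks 14.9% lay in the leading 10% of the list (12.6 to 17.6%), of the short-arm ones 12.5% (10.6 to 14.6%) and of the others 9.56% (9.10 to 10.0%). The share of WDR5 peaks with WT-MYC is close to the ratio on which the arms were selected. Its values by part are therefore a description and give the contrast no further support. In part 1, 109 of 258 long-arm peaks had WT-MYC (42.2%, 36.2 to 48.5%), against 32.1% on the short arm (27.1 to 37.5%) and 26.6% elsewhere (25.2 to 28.1%). In part 2 the shares were 21.5, 13.6 and 12.6%. In part 3 they were 12.1, 4.67 and 7.53%, and in part 4 they were 9.83, 5.91 and 5.54%. The long arm had the highest share in all 4 parts, also with the dense stretch left out (37.2, 18.2, 9.41 and 9.59%). In each part, however, its interval overlaps that of the short arm, both with the stretch and without it.

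**Figure D4:**
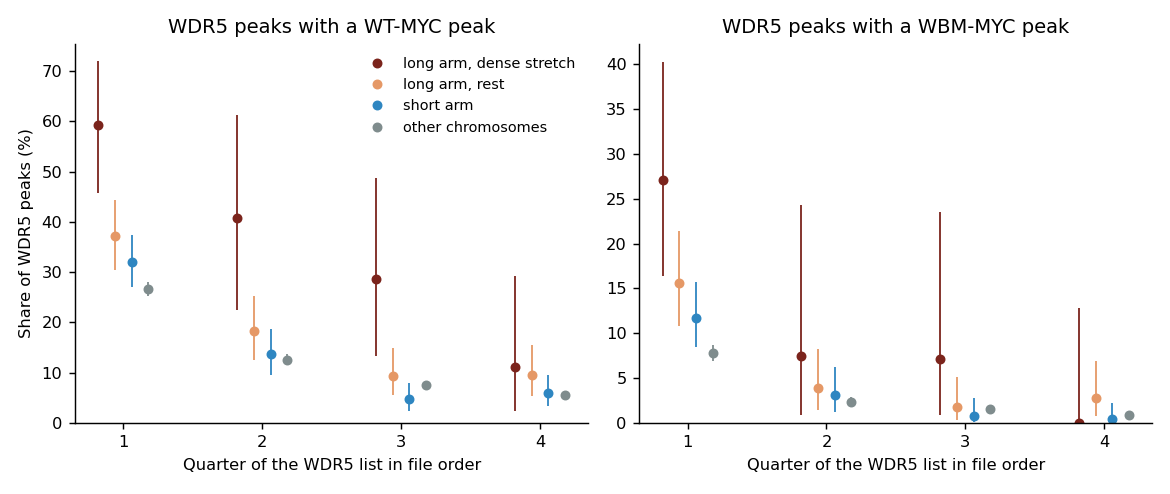
Shares of WDR5 peaks with a WT-MYC peak (left) and with a WBM-MYC peak (right) in each of the 4 equal parts of the WDR5 list in file order, with exact 95% intervals. The dense long-arm stretch (dark red) is highest for WT-MYC in every part, from 59.3% in part 1 to 11.1% in part 4, on 27 to 59 WDR5 peaks each.

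Sites present in all 3 lists made up a part of the long-arm peaks. The 3 lists come from different cells, so an overlap does not show that the proteins were bound together. Of the 193 WT-MYC peaks, 48 overlapped both WBM-MYC and WDR5 (24.9%, 18.9 to 31.6%), 118 overlapped WDR5 alone (61.1%, 53.9 to 68.1%), 3 overlapped WBM-MYC alone and 24 overlapped neither (12.4%, 8.13 to 17.9%). The corresponding short-arm counts were 34, 109, 7 and 17 of 167. The share with all 3 was 20.4% there (14.5 to 27.3%) and 15.6% on other chromosomes (14.0 to 17.1%). The first long-arm peaks of this class in file order spanned 224803495 to 224803990, 238027763 to 238027888, 180471602 to 180472097, 245082018 to 245082513 and 234735488 to 234735983. Their centres lay 3, 10, 6, 57 and 9 bp from the centre of the WBM-MYC peak and 59, 1.5, 87.5, 9.5 and 111 bp from that of the WDR5 peak. Except in the peak starting at 245082018, the 2 forms of MYC were thus centred at most 10 bp apart. The first 2 short-arm peaks of the class spanned 63988840 to 63989065 and 46016238 to 46016733.

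WT-MYC peaks on WDR5 alone were the commonest class on the long arm (61.1%), as they were on the short arm (65.3%) and on other chromosomes (66.9%). The first 5 of the long arm in file order spanned 236767608 to 236768103, 233771541 to 233772036, 151042886 to 151043381, 234746494 to 234746989 and 214776107 to 214776602. WBM-MYC came as near as 10521 bp to the peak starting at 234746494, and no nearer than 3343456 bp to that starting at 214776107. The first 2 of the short arm spanned 45241153 to 45241648 and 115259152 to 115259647. The class came later in the list than sites present in all 3 lists, with a median line of 1379.5 against 445.5 on the long arm and 1209 against 720 on the short arm.

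The 24 long-arm WT-MYC peaks on neither other list came last, with a median line of 1938.5. The same class also came last on the short arm (1713) and on other chromosomes (1639). On other chromosomes 282 of 2167 WT-MYC peaks were in it (13.0%), a share close to that of the long arm. The first long-arm peak of this class in file order spanned 245026208 to 245026338, only 131 bp wide and directly adjoining a WDR5 peak. It shares bases with the WT-MYC peak from 245026284 to 245026779, which overlapped WDR5. The next spanned 235247018 to 235247513, 228566075 to 228566570, 226309684 to 226310179 and 154540144 to 154540639. These 4 lay 6357, 78539, 11216 and 8395 bp from the nearest WDR5 peak. Of all 27 long-arm WT-MYC peaks without WDR5, 8 lay within 1 kb of a WDR5 peak, beside 8 of 24 on the short arm and 76 of 380 elsewhere. The stretch from 225 to 240 Mb held 11 of the 27, and 63 of all 193 long-arm WT-MYC peaks. Of its WT-MYC peaks 82.5% overlapped WDR5 (70.9 to 90.95%), against 87.7% in the rest of the long arm (80.8 to 92.8%). By 4 equal parts of the WT-MYC list in file order, 93.1, 85.4, 95.7 and 68.8% of long-arm WT-MYC peaks had WDR5, and 84.1, 87.8, 86.1 and 84.2% of short-arm ones, so the order of the arms was not the same in each part. In the last part, 33 of 48 long-arm peaks had WDR5 (68.8%, 53.7 to 81.3%), against 32 of 38 on the short arm (84.2%, 68.7 to 94.0%) and 80.2% elsewhere (76.6 to 83.5%). The first short-arm peaks of this class spanned 32879445 to 32879940 and 27372376 to 27372871.

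Most peaks of the mutant overlapped a peak of wild-type MYC, on both arms and elsewhere. Of the 62 long-arm WBM-MYC peaks, 46 overlapped WT-MYC (74.2%, 61.5 to 84.5%) and 39 of 49 did on the short arm (79.6%, 65.7 to 89.8%), a difference of -5.40 percentage points (-20.4 to 10.7). In the dense stretch 19 of 21 did, and in the rest of the long arm 27 of 41 did (65.9%, 49.4 to 79.9%). Of the 16 long-arm WBM-MYC peaks without WT-MYC, 13 overlapped WDR5 and 3 overlapped nothing. On the short arm 10 of 10 such peaks overlapped WDR5, so 0 of 49 WBM-MYC peaks overlapped neither other list, which allows a share of up to 6.12% by the limit of 3 counts and up to 7.25% by the exact interval. Of the WBM-MYC peaks of other chromosomes, 71.2% overlapped WT-MYC (67.3 to 74.8%) and 64 of 579 overlapped neither other list (11.1%, 8.62 to 13.9%), against 3 of 62 on the long arm (4.84%, 1.01 to 13.5%). The first long-arm peaks without WT-MYC spanned 244211017 to 244211472, 153963224 to 153963679, 144994494 to 144994949, 154989932 to 154990387 and 228270187 to 228270642. One of them, starting at 144994494, lay 667 bp from a WT-MYC peak and, like that starting at 228270187, on no WDR5 peak. The first 2 of the short arm spanned 93913588 to 93914043 and 65731318 to 65731773, both on WDR5.

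Overlapping peaks of WT-MYC and WDR5 were centred a median of 84.8 bp apart on the long arm (interquartile range 32 to 154.1 bp), 82 bp on the short arm (30.5 to 139.8 bp) and 69 bp elsewhere (27.5 to 137 bp). WT-MYC and WBM-MYC centres lay a median of 55 bp apart on the long arm (13 to 118.5 bp), 24 bp on the short arm (7 to 54 bp) and 32 bp elsewhere (11 to 70.5 bp). On the long arm this distance was 36 bp inside the dense stretch and 55 bp in the rest. No test was made of these distances.

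WT-MYC peaks of the long arm lay closer to one another. The median distance between neighbouring centres was 159.4 kb on the long arm and 235.4 kb on the short arm, while for WDR5 it was 39.9 and 41.3 kb. Of 192 neighbouring WT-MYC pairs on the long arm, 75 lay within 100 kb of each other (39.1%), against 41 of 166 on the short arm (24.7%) and 28.5% elsewhere. Without the stretch from 225 to 240 Mb the long arm had a median of 227 kb, and 37.5% of its pairs lay within 100 kb. This median was close to that of the short arm, which kept its own densest bins. Groups of at least 3 WT-MYC peaks, each within 100 kb of the next, numbered 18 on the long arm with 76 peaks and 9 on the short arm with 30. A higher number of WT-MYC peaks per Mb (1.93 against 1.42) by itself shortens such distances and makes groups more frequent. The pairs also include peaks centred less than a peak width apart, 13 on the long arm and 3 on the short arm. These values are therefore a description and no separate support.

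The largest group on the long arm had 8 WT-MYC peaks from 154955481 to 155243638, outside the dense stretch. All 8 overlapped a WDR5 peak, and 29 WDR5 and 2 WBM-MYC peaks fall in these 0.288 Mb. Only the last of the 8, 155243143 to 155243638, overlapped WBM-MYC. The next had 7 peaks from 244998544 to 245134818, beside 7 WDR5 and 2 WBM-MYC peaks. Here 2 WT-MYC peaks, 244998544 to 244999039 and 245082018 to 245082513, overlapped WBM-MYC, and some neighbours overlap each other, such as 245133970 to 245134465 and 245134323 to 245134818. The next group, 6 peaks from 228566075 to 228688985, lies within the dense stretch, and its first and last peaks had no WDR5 peak. The largest groups of the short arm had 4 WT-MYC peaks each, from 28844829 to 29063562, from 38229916 to 38325735 and from 44412028 to 44445781.

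Runs of consecutive WDR5 peaks that no WT-MYC peak overlapped were shorter on the long arm. The longest there had 22 WDR5 peaks, from 239549549 to 244211658, and begins in the last Mb of the dense stretch. It held 1 WBM-MYC peak. The next, of 21 WDR5 peaks each, spanned 202830506 to 203765263 and 198906380 to 201508400. On the short arm the longest runs had 42 WDR5 peaks from 46907983 to 52521189, 31 from 64211776 to 68152638 and 29 from 17866357 to 21114110. A higher share of WDR5 peaks with WT-MYC by itself shortens such runs.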

How the data were processed

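The deposited files are 3 peak lists, 1 each for WT-MYC, WBM-MYC and WDR5, with chromosome, start and end in columns and with no header, score or p-value. Reads were handled with CASAVA 1.8.2 and Bowtie 0.12.7 on build hg19, per the submitters' processing notes. Not given in the sources used here are the peak caller and its settings, the role of the control libraries and whether replicates were pooled. A site missing from a list may have been bound below an unknown threshold, and list lengths move with depth, which is unknown.

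Starts were printed counting from 1. Peaks overlapped when they shared at least 1 bp, and the counts were the same with bedtools 2.31.1. Shares have exact (Clopper-Pearson) intervals, differences of shares Newcombe intervals, and ratios of counts exact binomial intervals, with Python 3.11.15 and scipy 1.17.1. Folds between ratios have intervals from a normal approximation on the log scale. The overlap and interval code was tested on simulated data. Sites cluster along a chromosome, so all intervals are too narrow to some degree. No test was run, since each group has 1 list.

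Bins, chromosome parts and peaks were named by rules on ratio, run length and file order. The members, lists and rules were chosen with earlier results of these data known, and the stretch from 225 to 240 Mb was chosen after its values were seen. The reference tables at hand are of GRCh38, another build, so no peak was assigned to a gene and no sequence was read.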

Additional observations from a re-analysis of the deposited data

How the results depend on the processing

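Of 64 alternative values, 53 stayed within the 95% interval of the reported value, or, for the count of bins, within 1.5 times it. The order of the arms in MYC peaks per 100 WDR5 peaks was the same under all 4 planned settings for both forms of MYC. When only the leading 50% of each list was used, the share of WT-MYC peaks with WDR5 fell to 76.8% on the long arm and 75.3% on the short arm, that of WBM-MYC peaks to 80% and 72.7%, that of long-arm WDR5 peaks with WT-MYC to 18.2%, and that of short-arm WT-MYC peaks with WBM-MYC to 17.2%. A shorter partner list by itself leaves fewer overlaps. With an overlap of 50% of the shorter peak, 20.1% of long-arm WDR5 peaks had WT-MYC, and WT-MYC peaks with WBM-MYC were 23.8% on the long arm and 23.95% on the short arm, the opposite order to that at 1 bp. With 10-Mb bins, 2 of 10 long-arm bins passed the 2-fold limit in place of 4 of 17, a similar share, against 4.15% of all 10-Mb bins. With 2-Mb bins 4 of 14 did and 1 of 23 on the short arm, against 5.04% of all 2-Mb bins. The highest bin ratio stayed on the long arm with 2-Mb bins (61.3, against 46.15 on other chromosomes). It lay on other chromosomes with 10-Mb bins (52.5, against 47.4 on the long arm). The same held for 5-Mb bins with at least 10 WDR5 peaks (309.1 against 52.3). The next settings were added after the data were seen. Without the stretch from 225 to 240 Mb the long arm had 19.4 WT-MYC peaks per 100 WDR5 peaks, and 19.7% of its WDR5 peaks had WT-MYC. Without chromosome 9 the share of WBM-MYC peaks with WDR5 on other chromosomes was 77.4%. No paired analysis was possible because each group has 1 list and its peaks carry no replicate numbers, and for the same reason no replicate could be left out.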

Other observations

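Nearly all MYC peaks of the long arm have the one width common to their list. Of the 193 WT-MYC peaks 191 span 496 bp, and 62 of 62 WBM-MYC peaks span 456 bp. The 2 narrower WT-MYC peaks, 238027763 to 238027888 and 245026208 to 245026338, are at lines 58 and 148. The first overlaps both other lists, while the other overlaps neither but shares bases with a WT-MYC peak that has WDR5. WDR5 peaks vary more, with a median of 441.5 bp on the long arm (interquartile range 344.2 to 624 bp), 429 bp on the short arm (335 to 624 bp) and 417 bp elsewhere. Long-arm WDR5 peaks that both forms of MYC overlapped had a median width of 639 bp, and those that neither overlapped 431 bp. The same order was seen on the short arm (610.5 and 412 bp) and on other chromosomes (544 and 406 bp).

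Some neighbouring WT-MYC peaks overlapped each other. Merging peaks that share at least 1 bp turned its 193 peaks into 180 regions, a loss of 13, while the 167 short-arm peaks became 164, a loss of 3. On other chromosomes 87 of 2167 were lost in this way, a share between those of the arms. For WDR5 the 810 long-arm peaks became 692 regions and the 1063 short-arm peaks 919. Of the 13 overlapping WT-MYC neighbours, 5 lay between 225 and 240 Mb.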
